A study of Rattus norvegicus with 12 samples.

Results

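The transcripts of 35 genes of mitochondrial respiration and oxidation were followed in RCS cells, a chondrocyte line from a rat chondrosarcoma. The genes were chosen by symbol, by the names of respiratory chain subunits and their assembly factors, ATP synthase, the mitochondrial ribosome, protein import, the citric acid cycle, coenzyme Q synthesis and fatty acid and aldehyde oxidation. Of 1998 genes of the count tables that had a symbol, 38 matched, and 35 of these had 60 or more reads over the 12 libraries. Tomm40l, Atp5s and Cox18 fell outside with 6, 24 and 39 reads, while Ndufaf5, Aldh3a2 and Coq5 were the lowest inside with 149, 168 and 225. The 4 groups, each of 3 biological replicates, were WT RCS and FGFR3/4KO RCS, each cultured overnight in 5% adult bovine serum with or without FGF18. Cultures without FGF18, which the labels call untreated, are named vehicle here, after the paper's name for the serum medium. FGFR3/4KO is a single clone in which CRISPR/Cas9 disrupted the FGF receptors FGFR3 and FGFR4, so a difference between genotypes cannot be told apart from a difference between clones. The labels give FGF18 at 50 µg/ml, while the methods give the same figure in ng/ml. The comparisons address how FGF18, a ligand of these receptors, changes transcripts in chondrocytes and whether the change depends on FGFR3 and FGFR4.

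The respiratory chain lies in the inner mitochondrial membrane. Electrons from NADH enter at complex I and those from succinate at complex II, coenzyme Q carries them to complex III, and cytochrome c carries them to complex IV, which reduces oxygen. The proton gradient that results drives ATP synthase. The citric acid cycle and the oxidation of fatty acids feed electrons into the chain, and the mitochondrial ribosome translates the few subunits encoded in mitochondrial DNA. Chondrocytes live in a tissue without blood vessels and are known for drawing much of their energy from glycolysis. No complex III subunit was among the matched symbols, and genes of mitochondrial DNA were not analysed here.

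The reads assigned to genes numbered 373964 to 1196647 in a library, the fewest in replicate 2 of FGFR3/4KO with vehicle, and 7378 of 32754 genes were abundant enough to test, all 35 members among them. QuantSeq reads transcripts close to their 3′ ends, so that read counts scaled to library size (CPM, with edgeR's TMM factors) were compared between genes with no division by length. Reads set aside for low alignment quality made up 77.0 to 79.8% of the reads of WT libraries and 71.2 to 74.6% of those of FGFR3/4KO libraries, with no overlap between genotypes. Such reads include those that fit more than 1 place in the genome, so members with near-identical copies can be undercounted. Fgfr3 and Fgfr4 had no name here and were not checked, but FGF18 changed 1898 genes of WT RCS at an adjusted p under 0.05 and 0 of the FGFR3/4KO clone, where 20 passed with no filter on low counts. The chondrocyte markers Sox9, Col11a2, Chad, Mia and Epyc summed to between 3790 and 4590 CPM in every library, mostly from Mia, Sox9 and Col11a2, while Chad and Epyc were low. The 9 markers of other cell types summed to 19 to 34 CPM in WT vehicle, 36.9 to 101 in WT FGF18, 53.8 to 81.1 in FGFR3/4KO vehicle and 44.8 to 81.1 in FGFR3/4KO FGF18, and 7 of the 9 were at 0 in at least 1 WT vehicle library. Of the other 2, Alb, a liver marker at 0 to 28.3 CPM, passed in 4 of the 5 comparisons, and Syt1, a neuronal one, was present throughout. The part of these low levels in any result below was not tested.

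Acads, Cox7a2l and Mrps18b were the 3 members whose response to FGF18 differed between the genotypes by a test of that difference, and their promoters are shown for that reason. Each window holds 300 bases of the RefSeq rat assembly GRCr8, from 250 before to 50 after the start of the gene, and positions are counted from the first transcribed base as 1, with no 0. Capitals mark matches, on either strand, to GCATGCGC (the core of a site of the respiratory regulator NRF1), CCGGAAG (ETS factors such as GABPA), AAGATGGC (YY1), CACGTG (the E-box read by MiT/TFE and other factors) and CCAAT (NFY). The windows lie on the + strand at chr12:47154083-47154382 for Acads, chr6:16936324-16936623 for Cox7a2l and chr20:2842756-2843055 for Mrps18b.
Acads: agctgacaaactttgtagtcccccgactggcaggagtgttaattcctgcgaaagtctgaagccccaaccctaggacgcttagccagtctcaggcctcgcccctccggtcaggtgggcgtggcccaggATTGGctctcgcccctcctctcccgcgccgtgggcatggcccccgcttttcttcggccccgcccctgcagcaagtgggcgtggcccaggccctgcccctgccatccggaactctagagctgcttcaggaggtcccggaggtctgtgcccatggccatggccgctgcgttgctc
Cox7a2l: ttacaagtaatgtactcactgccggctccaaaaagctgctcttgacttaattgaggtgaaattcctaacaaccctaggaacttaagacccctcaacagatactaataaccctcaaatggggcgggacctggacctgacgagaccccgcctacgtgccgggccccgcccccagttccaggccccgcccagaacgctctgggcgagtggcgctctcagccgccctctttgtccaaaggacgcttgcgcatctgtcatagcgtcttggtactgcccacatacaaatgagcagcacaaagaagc
Mrps18b: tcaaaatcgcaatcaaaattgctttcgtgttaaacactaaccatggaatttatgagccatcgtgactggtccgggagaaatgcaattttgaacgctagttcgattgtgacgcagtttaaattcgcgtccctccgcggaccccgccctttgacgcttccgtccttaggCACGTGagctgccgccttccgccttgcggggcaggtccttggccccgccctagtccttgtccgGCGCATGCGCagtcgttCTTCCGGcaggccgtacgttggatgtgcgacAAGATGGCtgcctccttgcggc
The Mrps18b window held 4 of these motifs: CACGTG at -83 to -78, GCATGCGC on both strands in matches that overlap, at -20 to -13 and -18 to -11, CCGGAAG on the opposite strand at -3 to 4 and AAGATGGC at 29 to 36. The Acads window held CCAAT on the opposite strand at -123 to -119 and none of the others, and the Cox7a2l window held none. A promoter was found for 29 of the 35 members. GCATGCGC was in 13.8% of the 29 against 2.47% of all 33469 rat promoters in the table. CCGGAAG was in 27.6% against 8.75%, AAGATGGC in 27.6% against 3.17%, CACGTG in 10.3% against 6.42% and CCAAT in 27.6% against 37.5%. The 33469 promoters were not limited to genes expressed in RCS cells, so these shares do not compare the members with other expressed genes. These matches describe the letters in the windows and were not related to binding.

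The 35 members together took 0.876 to 1.11% of the counted reads of a library. Their summed CPM was 10360 ± 486 (SD, n = 3) in WT vehicle, 9859 ± 614 in WT FGF18, 9231 ± 311 in FGFR3/4KO vehicle and 9510 ± 530 in FGFR3/4KO FGF18. The lowest WT vehicle library, at 9845, lay above the highest FGFR3/4KO vehicle library, at 9469, while the ranges of the other pairs of groups compared overlapped. Mean CPM over the 12 libraries ran from 14.0 for Ndufaf5 to 1398 for Atp5i, with 17 members at 100 CPM or more. The 5 most abundant, Atp5i, Mdh2, Atp5b, Ndufa5 and Cox6a1, made up 53.5% of the total, so the sums mostly follow these genes.

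FGF18 changed few of the members in WT RCS. Acads, which catalyses the first step in the oxidation of short-chain fatty acids, and Cox7a2l, which helps complexes III and IV assemble into supercomplexes, rose, while Mrps18b, a protein of the small mitochondrial ribosomal subunit, and Ndufa8, a complex I subunit, fell. These 4 members were 11.4% of the 35 at an adjusted p under 0.05 in edgeR's quasi-likelihood test, against 25.7% of all genes tested (12.9% higher and 12.8% lower). At an unadjusted p under 0.05 there were 10 members, against 36.2% of all genes, and for 8 members (22.9%, against 39.6%) the groups did not overlap. The median log2 fold change of the members was -0.07, beside 0.02 over all genes. The 95% interval of the change lay within 1.5-fold in either direction for 16 members and within 2-fold for 28. With library totals in place of TMM, 20% of the members passed, against 25.8% of all genes. In bulk RNA, fewer cells of a kind and less RNA per cell cannot be told apart.

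In FGFR3/4KO RCS, 0 of 35 members changed with FGF18, beside 0% of all genes, with the lowest adjusted p of a member at 0.752. The likelihood-ratio test and DESeq2 also called 0 members. In edgeR 1 member, Mrps35, had an unadjusted p under 0.05, beside 6.48% of all genes, and for 4 members (11.4%, against 12.7%) the groups did not overlap. The interval lay within 1.5-fold for 20 members and within 2-fold for 29. The test of the difference between the genotypes, the interaction, passed for 3 members, Acads, Cox7a2l and Mrps18b, which is 8.57% against 10.9% of all genes. The fall of Ndufa8 in WT RCS had an interaction of 0.48 that did not pass (adjusted p = 0.171), so its response was not shown to differ between genotypes. DESeq2 did not call the fall of Ndufa8, while Acads, Cox7a2l and Mrps18b passed in WT RCS under every alternative that kept all libraries.

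**Figure D1:**
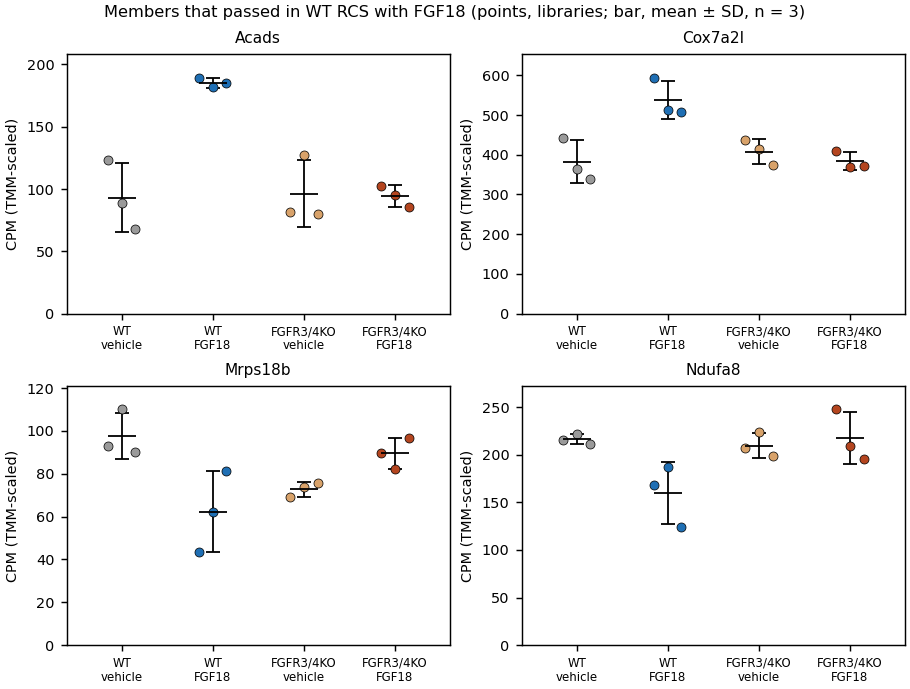
TMM-scaled CPM of the 4 members that passed in WT RCS with FGF18, by group on the x axis; points are libraries in the order of replicates 1 to 3 and bars the mean ± SD (n = 3). The WT FGF18 libraries of Acads, at 182 to 189 CPM, lie above all 9 other libraries, and those of Mrps18b and Ndufa8 lie below all WT vehicle libraries.

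**Figure D2:**
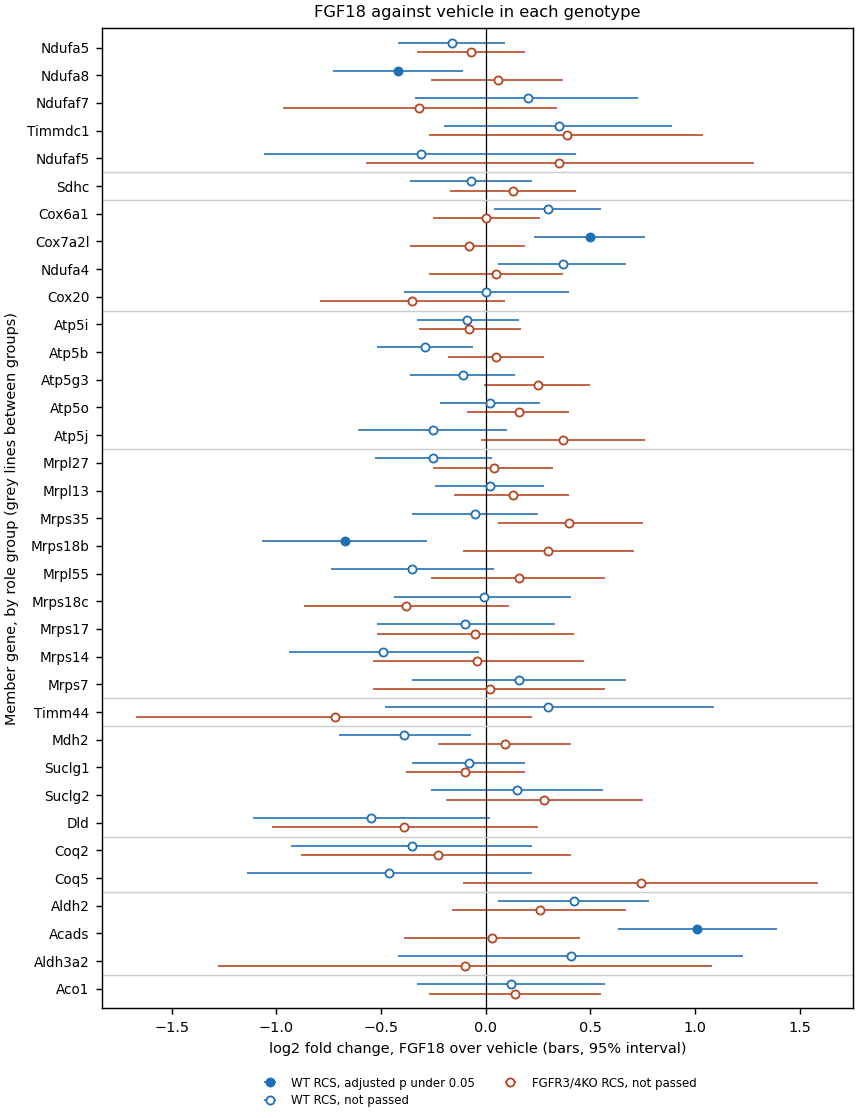
Log2 fold change of each of the 35 members with FGF18 over vehicle (x axis) in WT RCS and FGFR3/4KO RCS, ordered by role group, with 95% intervals; filled points passed an adjusted p under 0.05. The 4 filled points are in WT RCS and 0 are in FGFR3/4KO RCS.

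Complex I was represented by 2 subunits, Ndufa5 and Ndufa8, and by 3 assembly factors. Ndufa5, the most abundant, was at 929, 764 and 775.5 CPM in WT vehicle, 734, 673 and 795 in WT FGF18, 691, 739 and 631 in FGFR3/4KO vehicle and 721, 614 and 626 in FGFR3/4KO FGF18. Its highest library was a WT vehicle one, and it passed in none of the 5 comparisons. Ndufa8 was at 216, 222 and 211 CPM in WT vehicle, 168, 187.5 and 124 in WT FGF18, 207, 224 and 198 in FGFR3/4KO vehicle and 248, 209 and 195 in FGFR3/4KO FGF18. The WT FGF18 libraries were the lowest 3 of the 12. Its log2 fold change with FGF18 in WT RCS was -0.42 (SE 0.15, adjusted p = 0.0395), and with FGF18 it was higher in FGFR3/4KO than in WT by 0.43 (SE 0.15, adjusted p = 0.0282). The fall held in only 1 of 6 fits that left out a library, without replicate 2 of WT FGF18. It was lost without replicates 1, 2 or 3 of WT vehicle (-0.43, -0.41 and -0.45) and without replicates 1 or 3 of WT FGF18 (-0.46 and -0.29). The difference between genotypes was lost without replicate 3 of WT FGF18 (0.32, adjusted p = 0.106) and without replicate 1 of FGFR3/4KO FGF18 (0.36, adjusted p = 0.0765). Among the assembly factors, Ndufaf7, a methyltransferase that modifies a complex I subunit, was at 42.0, 31.3 and 33.98 CPM in WT vehicle, 38.5, 32.5 and 53.0 in WT FGF18, 27.6, 19.8 and 25.2 in FGFR3/4KO vehicle and 21.1, 13.3 and 25.8 in FGFR3/4KO FGF18. All 6 FGFR3/4KO libraries were below all 6 WT libraries. With FGF18 the log2 difference was -1.03 (SE 0.28, adjusted p = 0.00482), or -0.77 (adjusted p = 0.0506) without replicate 2 of FGFR3/4KO FGF18, and with vehicle it was -0.51 (SE 0.30, adjusted p = 0.278). Timmdc1, at 17.5 to 41.0 CPM, and Ndufaf5, at 2.83 to 27.5 CPM, passed in none.

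Complex II was represented by Sdhc, a subunit that anchors the complex in the membrane. Sdhc was at 225, 190.4 and 225 CPM in WT vehicle, 183, 225 and 203 in WT FGF18, 164, 178.5 and 198 in FGFR3/4KO vehicle and 202, 208 and 184 in FGFR3/4KO FGF18. Every pair of groups compared overlapped, and its 4 pairwise log2 fold changes lay between -0.24 and 0.13.

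Complex IV was represented by the subunits Cox6a1 and Ndufa4, by Cox20, which assists assembly, and by Cox7a2l, a supercomplex factor. It was the respiratory complex whose members had their highest summed level in WT FGF18. The sum over its 4 members was 1385 ± 132 CPM (SD, n = 3) in WT vehicle, 1770 ± 57.6 in WT FGF18, 1298 ± 54.3 in FGFR3/4KO vehicle and 1273 ± 29 in FGFR3/4KO FGF18. The 3 WT FGF18 libraries, at 1761, 1718 and 1832, were above all 9 others, of which WT vehicle replicate 1 came closest at 1535. From WT vehicle to WT FGF18 the mean of Cox7a2l went from 382.6 to 537.9 CPM. The mean of Cox6a1 went from 642.6 to 788.6 and that of Ndufa4 from 288.5 to 372.1, while Cox20 stayed at 71.8. Cox7a2l was the 1 member of the 4 that passed with FGF18 in WT RCS, and all 4 were lower in FGFR3/4KO than in WT with FGF18.

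Cox7a2l was at 443.5, 364 and 340 CPM in WT vehicle, 594, 512 and 508 in WT FGF18, 437, 414 and 374 in FGFR3/4KO vehicle and 410, 370.5 and 372 in FGFR3/4KO FGF18. The WT FGF18 libraries were the highest 3 of the 12. It rose in WT RCS by 0.50 on the log2 scale (SE 0.13, adjusted p = 0.0052), the change in FGFR3/4KO RCS was -0.08 (95% interval -0.36 to 0.19), and the interaction was -0.58 (SE 0.19, adjusted p = 0.0412). The rise was lost without replicate 3 of WT vehicle (0.41, adjusted p = 0.0575). The interaction passed in 3 of 12 fits that left out a library, those without WT vehicle 1, WT FGF18 3 or FGFR3/4KO FGF18 1. It was lost without WT vehicle 2 or 3 (-0.55 and -0.49), WT FGF18 1 or 2 (-0.50 and -0.58), FGFR3/4KO vehicle 1, 2 or 3 (-0.52, -0.54 and -0.61) or FGFR3/4KO FGF18 2 or 3 (-0.55 and -0.52). It was also lost with library totals in place of TMM and under both other filters on low counts, with the highest adjusted p at 0.0899. With FGF18, Cox7a2l was lower in FGFR3/4KO than in WT by a log2 value of -0.49 (SE 0.13, adjusted p = 0.00408), a call kept in 6 of 6 such fits.

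Ndufa4, first named as a complex I subunit and now assigned to complex IV, was at 309, 272 and 285 CPM in WT vehicle, 330, 394 and 392 in WT FGF18, 228, 161.5 and 266 in FGFR3/4KO vehicle and 207, 267 and 221 in FGFR3/4KO FGF18. With FGF18 the log2 difference between FGFR3/4KO and WT was -0.68 (SE 0.15, adjusted p = 0.000829), kept in 6 of 6 fits, and with vehicle it was -0.36 (SE 0.16, adjusted p = 0.133). All 6 FGFR3/4KO libraries were below all 6 WT ones. Cox6a1, a subunit of complex IV, was at 726, 620 and 582 CPM in WT vehicle, 755, 735 and 876 in WT FGF18, 637, 634.5 and 551 in FGFR3/4KO vehicle and 630, 591 and 601.5 in FGFR3/4KO FGF18. With FGF18 its difference was -0.38 (SE 0.12, adjusted p = 0.0189), which was lost without WT FGF18 3 (-0.26, adjusted p = 0.117), FGFR3/4KO FGF18 2 (-0.35, 0.0692) or FGFR3/4KO FGF18 3 (-0.33, 0.0887). Cox20, which assists the insertion of a complex IV core subunit, was at 56.5, 78.9 and 79.95 CPM in WT vehicle, 81.2, 77.5 and 56.7 in WT FGF18, 58.2, 62.3 and 70.1 in FGFR3/4KO vehicle and 46.1, 58.5 and 45.1 in FGFR3/4KO FGF18. Its groups overlapped in each comparison, and with FGF18 the difference was -0.53 (SE 0.20, adjusted p = 0.0371). That call was lost without WT FGF18 1 or 2 (-0.43 and -0.45) or FGFR3/4KO FGF18 1 or 3 (-0.45 and -0.41). Cox6a1 and Ndufa4 had FGF18 values of 0.30 (95% interval 0.04 to 0.55) and 0.37 (0.06 to 0.67) in WT RCS, which did not pass (adjusted p = 0.0787 and 0.0719).

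The summed level of the ATP synthase members was lowest in WT FGF18, a sum of which Atp5i and Atp5b were the largest parts. It was 3700 ± 151 CPM in WT vehicle, 3377 ± 79.8 in WT FGF18, 3751 ± 91.8 in FGFR3/4KO vehicle and 3900 ± 188 in FGFR3/4KO FGF18 (SD, n = 3), with all 3 WT FGF18 libraries below the 9 others. Atp5i and Atp5b had their lowest group mean there, while Atp5g3, Atp5o and Atp5j had theirs in FGFR3/4KO vehicle. No member passed with FGF18 in WT RCS, the lowest adjusted p being 0.0562. Atp5b, the catalytic beta subunit, was at 984, 1069 and 971 CPM in WT vehicle, 789, 815 and 869 in WT FGF18, 1267, 1139 and 1242 in FGFR3/4KO vehicle and 1270, 1297 and 1221 in FGFR3/4KO FGF18. All 6 FGFR3/4KO libraries lay above all 6 WT libraries, and WT FGF18 lay below WT vehicle. With FGF18 it was higher in FGFR3/4KO than in WT by 0.62 (SE 0.11, adjusted p = 9.06e-05), or 1.53-fold, a call kept in 6 of 6 fits that left out a library. With vehicle the difference was 0.27 (SE 0.11, adjusted p = 0.106), and the change with FGF18 in WT RCS was -0.29 (SE 0.11, adjusted p = 0.0562). Atp5i, the e subunit and the most abundant of all members, was at 1506, 1410 and 1297 CPM in WT vehicle, 1321, 1367 and 1279 in WT FGF18, 1423, 1609 and 1383 in FGFR3/4KO vehicle and 1612, 1319 and 1256 in FGFR3/4KO FGF18. Its groups overlapped throughout, and its pairwise log2 fold changes lay between -0.09 and 0.08, each with an SE of 0.12. Atp5j, coupling factor 6 in the stalk of the enzyme, was at 98.55, 103 and 120 CPM in WT vehicle, 87.7, 101 and 81.3 in WT FGF18, 85.8, 56.65 and 69.0 in FGFR3/4KO vehicle and 73.8, 100.1 and 102 in FGFR3/4KO FGF18. With vehicle it was lower in FGFR3/4KO by a log2 value of -0.58 (SE 0.19, adjusted p = 0.0393). This call held in 1 of 6 fits, without FGFR3/4KO vehicle 1, and was lost without WT vehicle 1, 2 or 3 (-0.64, -0.61 and -0.49) or FGFR3/4KO vehicle 2 or 3 (-0.49 and -0.54). Atp5g3, of the membrane ring, and Atp5o, of the stalk, passed in none of the comparisons.

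The mitochondrial ribosome was represented by 3 proteins of the large subunit (Mrpl13, Mrpl27 and Mrpl55) and 6 of the small subunit (Mrps7, Mrps14, Mrps17, Mrps18b, Mrps18c and Mrps35). Mrps18b was at 92.75, 110.1 and 89.9 CPM in WT vehicle, 43.45, 62.2 and 81.3 in WT FGF18, 68.9, 73.65 and 75.6 in FGFR3/4KO vehicle and 89.65, 82.4 and 96.7 in FGFR3/4KO FGF18. The WT groups did not overlap, and neither did the FGFR3/4KO groups, which moved the other way. It fell with FGF18 in WT RCS by 0.67 on the log2 scale (SE 0.19, adjusted p = 0.0103), the change in FGFR3/4KO RCS was 0.30 (SE 0.20, adjusted p = 0.814), and the interaction was 0.97 (SE 0.28, adjusted p = 0.0218). The fall was lost without WT vehicle 2 (-0.58, adjusted p = 0.06) or WT FGF18 1 (-0.45, adjusted p = 0.094). The interaction was lost without WT vehicle 2 (0.88, adjusted p = 0.0666), WT FGF18 1 (0.75, adjusted p = 0.0705) or FGFR3/4KO vehicle 1 (0.93, adjusted p = 0.0638). With FGF18, Mrps18b was higher in FGFR3/4KO by 0.55 (SE 0.19, adjusted p = 0.025), or 0.33 without WT FGF18 1 and 0.53 without FGFR3/4KO FGF18 3, neither of which passed. With vehicle the difference was -0.42 (SE 0.20, adjusted p = 0.176).

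Mrps35 had the lowest adjusted p of all members between genotypes with vehicle. It was at 175, 192 and 214 CPM in WT vehicle, 158, 196 and 211 in WT FGF18, 99.6, 105 and 92.1 in FGFR3/4KO vehicle and 144, 122 and 124 in FGFR3/4KO FGF18. Every FGFR3/4KO library was below every WT library. The log2 difference was -0.99 (SE 0.16, adjusted p = 0.00012) with vehicle, or 0.503 of the WT level, and -0.53 (SE 0.15, adjusted p = 0.00671) with FGF18, and each call was kept in 6 of 6 fits that left out a library. Mrps18c was at 71.0, 70.7 and 64.0 CPM in WT vehicle, 58.2, 75.6 and 70.2 in WT FGF18, 38.3, 79.3 and 51.5 in FGFR3/4KO vehicle and 46.1, 43.4 and 34.1 in FGFR3/4KO FGF18. With FGF18 it was lower in FGFR3/4KO by a log2 value of -0.72 (SE 0.21, adjusted p = 0.0102), a call lost without WT FGF18 2 (-0.61, adjusted p = 0.0673) or FGFR3/4KO FGF18 3 (-0.56, adjusted p = 0.0801). Mrpl27, the most abundant of the 9, was at 530, 571 and 454 CPM in WT vehicle, 363, 428 and 515 in WT FGF18, 452, 481.5 and 446 in FGFR3/4KO vehicle and 521, 468 and 426 in FGFR3/4KO FGF18. It passed in no comparison, and WT FGF18 was its most spread group. The log2 difference between genotypes with vehicle was below 0 for 9 of 9 ribosomal proteins, with a median of -0.31. It was below 0 for 85.7% of the 35 members, with a median of -0.34, and for 51.2% of all genes tested. Of the 9, 1 passed (11.1%, against 14.1% of all genes). With FGF18 the difference was below 0 for 6 of the 9 and above 0 for 3, while 51.8% of all genes were below 0.

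Timm44, which tethers the import motor to the inner membrane, was at 21.7, 24.5 and 37.0 CPM in WT vehicle, 52.5, 37.3 and 11.1 in WT FGF18, 27.6, 17 and 28.5 in FGFR3/4KO vehicle and 3.95, 19.5 and 20.3 in FGFR3/4KO FGF18. The lowest of these values rests on 3 reads, and the groups overlapped. With FGF18 it was lower in FGFR3/4KO by a log2 value of -1.17 (SE 0.41, adjusted p = 0.0267), which fell to -0.70 without WT FGF18 1, -1.10 without WT FGF18 2 and -0.79 without FGFR3/4KO FGF18 1 and passed in none of these.

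The citric acid cycle was represented by Mdh2, Suclg1, Suclg2 and Dld. Mdh2, the malate dehydrogenase of the cycle, was at 1601, 1730 and 1567 CPM in WT vehicle, 915, 1208 and 1631 in WT FGF18, 1180, 1379 and 1079 in FGFR3/4KO vehicle and 1480, 1141 and 1236 in FGFR3/4KO FGF18. WT FGF18 was spread over the whole range, with replicate 3 among the WT vehicle libraries and replicate 1 below all others. Its changes of -0.39 (SE 0.15, adjusted p = 0.0648) with FGF18 in WT RCS and -0.43 (SE 0.16, adjusted p = 0.0607) between genotypes with vehicle did not pass. Suclg1, the alpha subunit of succinyl-CoA ligase, was at 351, 314 and 321 CPM in WT vehicle, 335, 318.5 and 273.5 in WT FGF18, 265, 286 and 231 in FGFR3/4KO vehicle and 225, 260 and 238 in FGFR3/4KO FGF18. All 6 FGFR3/4KO libraries but 1, at 286, were below every WT library. With FGF18 the log2 difference was -0.36 (SE 0.13, adjusted p = 0.0354), lost without WT FGF18 1 or 2 (-0.29 and -0.31) or FGFR3/4KO FGF18 1 or 3 (-0.28 and -0.31), and with vehicle it was -0.35 (SE 0.14, adjusted p = 0.0934). Suclg2, the beta subunit of the GTP-forming ligase, at 31.2 to 90.2 CPM, and Dld, the shared lipoamide dehydrogenase of the 2-oxoacid dehydrogenases, at 13.55 to 44.0 CPM, passed in none. With vehicle, 4 of 4 were below 0 between genotypes, beside 51.2% of all genes tested. An unadjusted p under 0.05 was found for 3 of the 4, beside 2046 of all 7378 genes, and 0 passed, beside 14.1%.

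Coenzyme Q synthesis was represented by Coq2, the prenyltransferase that joins ring and tail, and Coq5, a methyltransferase of the ring. Coq2 was at 46.4, 57.1 and 39.0 CPM in WT vehicle, 36.1, 27.7 and 48.05 in WT FGF18, 39.8, 62.3 and 20.8 in FGFR3/4KO vehicle and 32.96, 31.9 and 29.5 in FGFR3/4KO FGF18. It passed in none, and its groups overlapped. Coq5 was at 28.99, 24.5 and 35.0 CPM in WT vehicle, 18.0, 32.5 and 13.55 in WT FGF18, 16.85, 5.665 and 12.05 in FGFR3/4KO vehicle and 26.4, 13.3 and 23.95 in FGFR3/4KO FGF18. With vehicle the genotypes did not overlap, and the log2 difference was -1.26 (SE 0.40, adjusted p = 0.0338), although the lowest library rests on 2 reads. The call was lost without WT vehicle 1 or 3 (-1.27 and -1.10) or FGFR3/4KO vehicle 2 or 3 (-1.07 and -1.23).

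Oxidation of fatty acids and aldehydes was represented by Acads, Aldh2 and Aldh3a2. The sum over them was 250 ± 47.4 CPM in WT vehicle, 395 ± 12.2 in WT FGF18, 189 ± 15.3 in FGFR3/4KO vehicle and 207 ± 37.0 in FGFR3/4KO FGF18 (SD, n = 3), and the 3 WT FGF18 libraries, at 387, 389 and 409, were above all 9 others. From WT vehicle to WT FGF18 the mean went from 93.2 to 185.3 CPM for Acads, 138.9 to 186.1 for Aldh2 and 17.6 to 23.65 for Aldh3a2. Acads was the 1 member that passed there, and Aldh2 and Aldh3a2 did not (adjusted p = 0.0823 and 0.504). All 3 members were lower in FGFR3/4KO than in WT with FGF18.

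Acads was at 123, 88.4 and 68.0 CPM in WT vehicle, 189, 182 and 185 in WT FGF18, 81.2, 127.5 and 80.0 in FGFR3/4KO vehicle and 103, 94.8 and 85.7 in FGFR3/4KO FGF18. It rose with FGF18 in WT RCS by 1.01 on the log2 scale (SE 0.19, adjusted p = 0.000155), or 2.02-fold, a call kept in 6 of 6 fits that left out a library. The change in FGFR3/4KO RCS was 0.03 (95% interval -0.39 to 0.45), and the interaction was -0.98 (SE 0.28, adjusted p = 0.0202). The interaction was lost without WT vehicle 2 (-0.95, adjusted p = 0.0544), WT vehicle 3 (-0.77, adjusted p = 0.091), FGFR3/4KO vehicle 2 (-0.75, adjusted p = 0.091) or FGFR3/4KO FGF18 3 (-0.87, adjusted p = 0.0624). With vehicle the genotypes overlapped at a log2 difference of 0.00 (SE 0.21), and with FGF18 the difference was -0.98 (SE 0.18, adjusted p = 0.000115).

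Aldh2, which oxidises acetaldehyde in the mitochondrial matrix, was at 168, 120 and 129 CPM in WT vehicle, 159, 187.5 and 212 in WT FGF18, 93.45, 68.0 and 88.8 in FGFR3/4KO vehicle and 136, 89.5 and 85.7 in FGFR3/4KO FGF18. The genotypes did not overlap with vehicle or with FGF18. With FGF18 the log2 difference was -0.86 (SE 0.18, adjusted p = 0.000468), kept in 6 of 6 fits, and with vehicle it was -0.69 (SE 0.20, adjusted p = 0.0197). The latter was lost without WT vehicle 1 (-0.54, adjusted p = 0.123), FGFR3/4KO vehicle 2 (-0.60, adjusted p = 0.0802) or FGFR3/4KO vehicle 3 (-0.73, adjusted p = 0.0624). In WT RCS with FGF18 its change of 0.42 (SE 0.18) did not pass (adjusted p = 0.0823). Aldh3a2, the fatty aldehyde dehydrogenase, which works mainly in the endoplasmic reticulum, was at 13.0, 10.9 and 28.98 CPM in WT vehicle, 38.5, 20.1 and 12.3 in WT FGF18, 6.13, 11.3 and 10.96 in FGFR3/4KO vehicle and 9.23, 12.4 and 4.61 in FGFR3/4KO FGF18. With FGF18 the difference was -1.48 (SE 0.44, adjusted p = 0.011) with groups that overlapped, or -0.90 without WT FGF18 1 and -1.11 without FGFR3/4KO FGF18 3, neither of which passed.

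Aco1, the cytosolic aconitase that also acts as an iron regulatory protein, matched by symbol and is not a mitochondrial enzyme. It was at 36.2, 48.95 and 44.0 CPM in WT vehicle, 41.0, 44.0 and 57.9 in WT FGF18, 73.5, 59.5 and 75.6 in FGFR3/4KO vehicle and 96.2, 74.45 and 67.25 in FGFR3/4KO FGF18. All 6 FGFR3/4KO libraries were above all 6 WT libraries. The log2 difference was 0.72 (SE 0.22, adjusted p = 0.0285) with vehicle and 0.74 (SE 0.20, adjusted p = 0.00489) with FGF18. The second was kept in 6 of 6 fits, and the first was lost without WT vehicle 1 or 3 (0.62 and 0.73) or FGFR3/4KO vehicle 1 or 3 (0.69 and 0.65).

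**Figure D3:**
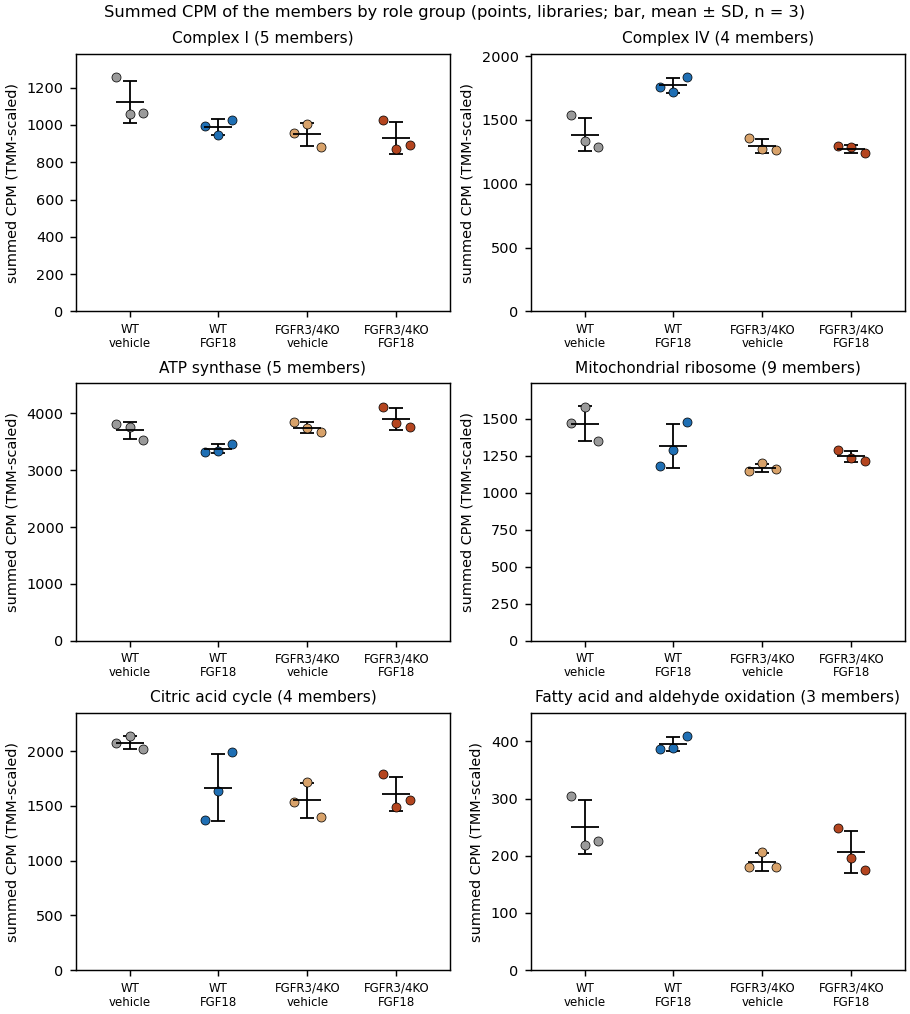
Summed TMM-scaled CPM of the members in 6 role groups, by group on the x axis; points are libraries in the order of replicates 1 to 3 and bars the mean ± SD (n = 3). The WT FGF18 libraries are the highest of the 12 for complex IV, at 1718 to 1832, and for fatty acid and aldehyde oxidation, at 387 to 409, and the lowest for ATP synthase, at 3318 to 3468.

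Over all members, the genotypes with vehicle differed in a direction shared by most of the 35. The log2 difference was below 0, lower in FGFR3/4KO, for 30 of 35 members (85.7%), against 51.2% of all genes tested, and its median was -0.34 against -0.01. The groups did not overlap for 17 members (48.6%, against 34.2% of all genes), 15 of them lower in FGFR3/4KO, against 17.1% of all genes. At an adjusted p under 0.05, however, 4 were lower (Mrps35, Aldh2, Coq5 and Atp5j) and 1 higher (Aco1), which is 14.3%, against 14.1% of all genes (6.07% lower and 8% higher). Coq5, Atp5j and Aco1 were not called by DESeq2, Aco1 was not called with library totals, and Atp5j was not called with no filter. The 95% interval lay within 2-fold for 24 of 35 members. The difference was below 0 for 28 to 33 of 35 members in the alternatives that tested all 35 and with each library of the 2 groups left out, and for 29 of 33 when only the 2 groups were fitted. In that last fit 36.4% of the 33 passed, against 23.4% of all genes, so the near-equal shares above did not hold there. The median was -0.24 for the 17 members at 100 CPM or more and -0.40 for the 18 below. With library totals in place of TMM the median of all genes moved to -0.13, that of the members to -0.45 and the calls to 10 lower and 0 higher, while the calls over all genes went from 590 higher and 448 lower to 434 higher and 701 lower. The shares called were then 28.6% of the members and 15.4% of all genes. The share of reads set aside for low alignment quality moved with genotype, as given above, and its part in the difference was not tested.

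With FGF18, 12 members were lower in FGFR3/4KO than in WT and 4 higher, 45.7% of the 35 against 33.9% of all genes (17% lower and 16.9% higher). The groups did not overlap for 16 members (45.7%, against 42% of all genes). The 12 were Acads, Aldh2, Aldh3a2, Cox6a1, Cox7a2l, Cox20, Ndufa4, Ndufaf7, Mrps18c, Mrps35, Suclg1 and Timm44, and the 4 were Atp5b, Aco1, Mrps18b and Ndufa8. The log2 difference was below 0 for 25 of 35 members (71.4%, against 51.8%), with a median of -0.23 against -0.03. When only the 2 groups compared were fitted, Mrps18b, Timm44, Cox6a1, Cox20, Suclg1 and Ndufa8 did not pass. In that fit 28.6% of the members passed, against 29.4% of all genes, so the higher share of members above did not hold there. DESeq2 did not call Mrps18b, Cox20 or Suclg1, and Cox6a1, Cox20 and Suclg1 were lost under both other filters on low counts. Ndufa8 was lost with library totals. Mrps35, Aldh2 and Aco1 passed both with vehicle and with FGF18. These 2 comparisons between genotypes share no library with each other, but each shares its WT libraries with the test of FGF18 in WT RCS. Over the 5 comparisons 18 members passed in at least 1 and 17 in none. The matching count over all genes was not taken, so these 2 counts describe the members only.

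**Figure D4:**
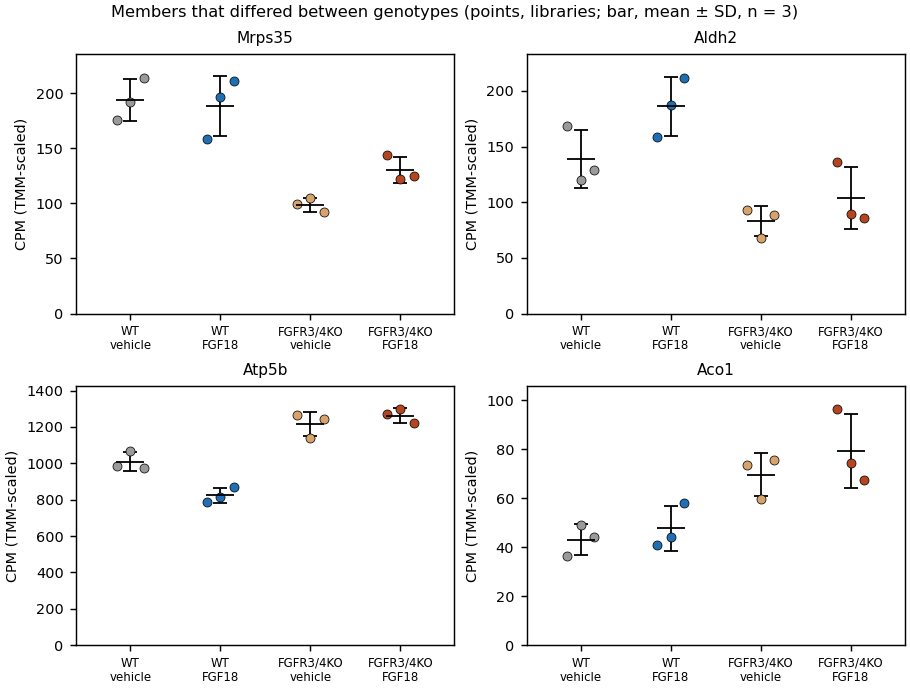
TMM-scaled CPM of Mrps35, Aldh2, Atp5b and Aco1, by group on the x axis; points are libraries in the order of replicates 1 to 3 and bars the mean ± SD (n = 3). The 6 FGFR3/4KO libraries lie below the 6 WT ones for Mrps35 and above them for Atp5b and Aco1.

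**Figure D5:**
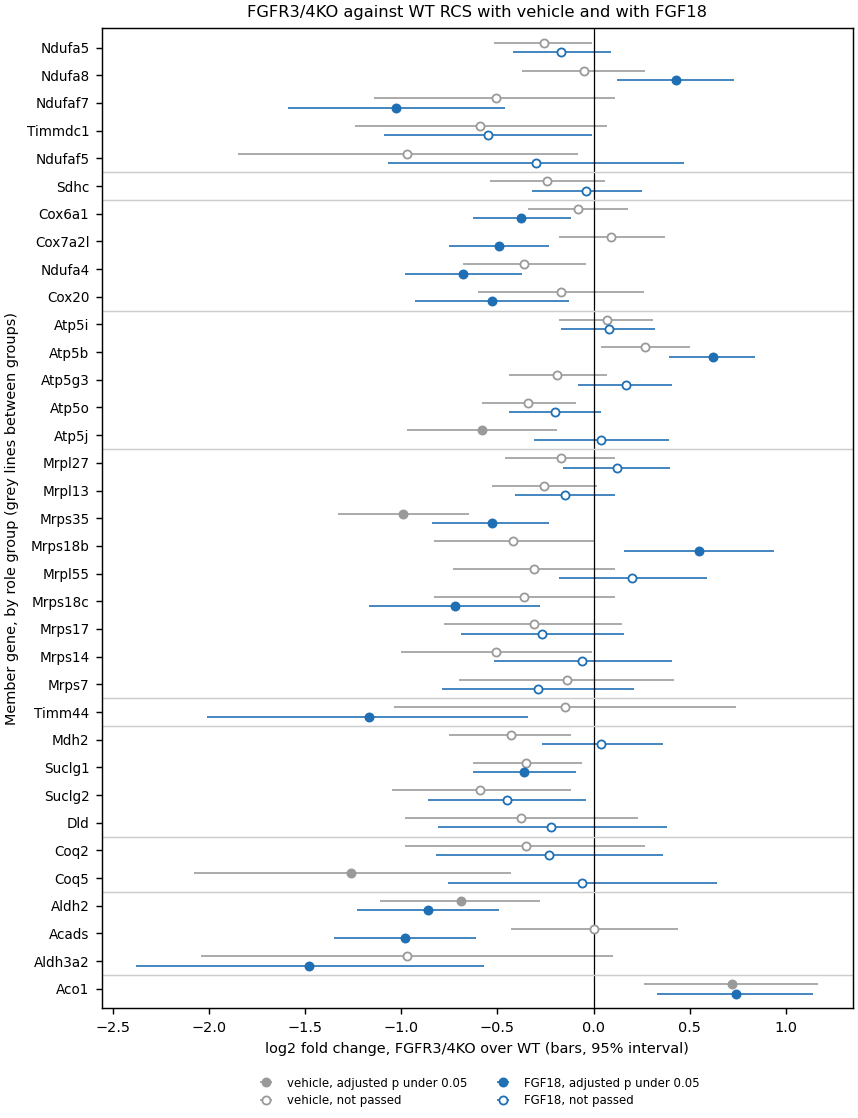
Log2 fold change of each of the 35 members in FGFR3/4KO over WT RCS (x axis) with vehicle and with FGF18, ordered by role group, with 95% intervals; filled points passed an adjusted p under 0.05. With vehicle 30 of 35 points lie below 0 and 5 are filled, and with FGF18 25 lie below 0 and 16 are filled.

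A list of 67 other mitochondrial genes, of transport, import, iron-sulfur clusters, dynamics and metabolism, held 51 that were tested. With FGF18 in WT RCS, 1 of these rose and 4 fell, 9.80% against 25.7% of all genes, with a median log2 fold change of -0.12. The 1 that rose was Mtch1, an insertase of the outer membrane, at 162, 125 and 153 CPM in WT vehicle, 239, 219 and 238 in WT FGF18, 207, 187 and 194 in FGFR3/4KO vehicle and 191, 183.5 and 193 in FGFR3/4KO FGF18. The change was 0.66 (SE 0.14, adjusted p = 0.000773), and Mtch1 was also the 1 gene of the list that passed the interaction, at -0.71 (SE 0.20, adjusted p = 0.0182). The interaction was lost without WT vehicle 2 (-0.61), FGFR3/4KO vehicle 1 (-0.67) or FGFR3/4KO vehicle 3 (-0.69), and with no filter on low counts (adjusted p = 0.0521).

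Fh and Slc25a32 were among the genes of that list that fell. Fh, fumarase, was at 65.2, 51.7 and 54.0 CPM in WT vehicle and 32.8, 25.8 and 40.7 in WT FGF18, a change of -0.79 (SE 0.24, adjusted p = 0.0138) that was lost without WT vehicle 1 (-0.69) or WT FGF18 2 (-0.66). Slc25a32, a carrier of folate and flavin, was at 159, 149.6 and 159.9 CPM in WT vehicle and 104, 88.0 and 81.3 in WT FGF18, a change of -0.77 (SE 0.16, adjusted p = 0.00067) kept in 6 of 6 fits. The WT groups did not overlap for either gene. The interaction did not pass for Fh (0.55, adjusted p = 0.325) or Slc25a32 (0.65, adjusted p = 0.0806). In FGFR3/4KO vehicle Slc25a32 was at 85.8, 119 and 89.9 CPM. That was lower than in WT vehicle by a log2 value of -0.71 (SE 0.17, adjusted p = 0.00473). With FGF18, Fh was higher in FGFR3/4KO than in WT by 0.69 (SE 0.23, adjusted p = 0.0214). Between genotypes, 4 genes of the list were higher and 4 lower in FGFR3/4KO with vehicle (15.7% against 14.1%), and 8 were higher and 5 lower with FGF18 (25.5% against 33.9%). With vehicle 30 of the 51 (58.8%) were below 0, with a median of -0.10, beside 85.7% of the 35 members.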

How the data were processed

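Libraries of 3′ mRNA (QuantSeq) from 100 ng of RNA of 12 cultures were sequenced with 75 bp reads. The authors used Trim Galore for trimming, STAR for alignment to the rat build rn6 and htseq-count for counting, and the deposited files hold unnormalised counts of reads per gene. The methods name Gencode v19, although the identifiers are rat Ensembl ones, and tool versions are not given in the sources used here. Gene names came from the pairs of identifier and symbol in a supplementary table that was read in part, ordered by identifier. Its other columns, the authors' CPM and comparisons, were not used. The labels call the replicates biological and give no dates of culture or sequencing.

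From the counts, edgeR 4.0.16 in R 4.3.3 was used with filterByExpr (minimum count 10, minimum total 15), TMM, 1 model of 4 group means over all 12 libraries, quasi-likelihood tests and Benjamini-Hochberg adjustment over 7378 genes, with a threshold of 0.05. The SE is the size of the log2 fold change over the square root of F. The alternatives were the likelihood-ratio test, DESeq2 1.42.0, upper-quartile and library-total scaling, 2 other filters, a fit of the 2 groups compared alone, the replicate number as a block, and leaving out 1 library at a time. All members that passed in any comparison and the most abundant of each role group were given in full. Of the other mitochondrial genes, up to 3 rises and 3 falls with FGF18 in WT RCS and those passing the interaction were given, except 1 that is not reported here. The members and lists were chosen with earlier results of these data known. Replicates of a group differed by more than sampling noise, with a chi-square per degree of freedom of 1.56 to 5.67. A count of 3 reads, taken as the smallest amount shown, is 2.46 to 8.50 CPM, which covers counting error only because reads carry no molecular identifiers. RefSeq names matched 29 members to a promoter, 5 ATP synthase members by older symbols.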

Additional observations from a re-analysis of the deposited data

Results flagged for a closer look

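The response to FGF18 differed between WT RCS and FGFR3/4KO RCS, by edgeR's test of the interaction, for 3 of the 35 members and for 1 of the 51 other mitochondrial genes tested. The log2 interaction was -0.98 for Acads, -0.58 for Cox7a2l and -0.71 for Mtch1, which rose in WT RCS, and 0.97 for Mrps18b, which fell there. A share of 8.57% of members is below the 10.9% of all genes tested, and each of the 4 interactions was lost without at least 3 of the 12 libraries taken singly.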

How the results depend on the processing

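Between genotypes with vehicle, 1 member was higher and 4 were lower, while DESeq2 called 0 and 2, library totals 0 and 10, and only the groups compared 2 and 10. The share of members called was 14.3%, against 14.1% of all genes, and became 5.71% against 11.3% with DESeq2, 28.6% against 15.4% with library totals, and 36.4% of 33 members against 23.4% with only the groups compared. With library totals, 5 members fell with FGF18 in WT RCS in place of 2. The share of members called there went from 11.4% to 20%, against 25.7% and 25.8% of all genes. The calls over all genes went from 950 higher and 948 lower to 772 higher and 1135 lower. Of the interactions, 1 was below 0 with library totals, with no filter and with at least 1 CPM in 3 libraries, in place of 2. With FGF18, 2 members in place of 4 were higher in FGFR3/4KO when only the groups compared were fitted, and the share called went from 45.7% against 33.9% to 28.6% against 29.4%. The interaction could not be fitted with only the groups compared, since it uses all 4. With no filter, 20 of all genes passed with FGF18 in FGFR3/4KO RCS and 0 members did. The cause of these changes was not tested.

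Same-numbered libraries did not deviate together (mean correlation -0.03, 0 of 18 pairs over 0.1, 0 of 12 libraries closest to their own number), so the replicate block was only an alternative. With the replicate block, 2 members in place of 4 were lower in FGFR3/4KO with vehicle, Coq5 and Atp5j being lost, and Suclg1 was lost with FGF18.

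With each library left out, WT RCS gave 1 to 4 members higher and 0 to 4 lower with FGF18, the interaction 0 to 2 in each direction, FGFR3/4KO with vehicle 0 to 1 higher and 1 to 4 lower, and FGFR3/4KO with FGF18 3 to 4 higher and 8 to 11 lower. In the same order, the shares of all genes called in these fits were 17.5 to 23.2%, 7.29 to 11.5%, 8.92 to 11.1% and 27.4 to 32%. With all libraries they were 25.7%, 10.9%, 14.1% and 33.9%. The summed CPM of the members in FGFR3/4KO vehicle was 8914 with library totals in place of 9231. Without Atp5i the sums were 8957 in WT vehicle, 8535 in WT FGF18, 7760 in FGFR3/4KO vehicle and 8113 in FGFR3/4KO FGF18. Over all alternatives, 394 values of single genes kept their call, 102 lost it and 0 changed direction. Only genes called in the main fit were followed, so calls gained in an alternative are not in this tally. Depth limits the members under 30 CPM most: the SE of Aldh3a2 in FGFR3/4KO RCS with FGF18 was 0.57, so that a 2-fold change was not detectable there.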
